A study of Mus musculus with 8 samples.

Results

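The regions described here are stretches of chromatin that were called accessible in both libraries of FAK-deficient squamous cell carcinoma (SCC) cells and in none of the 6 libraries of cells that had been given a FAK construct. They were chosen by the presence and absence of peaks in the deposited ATAC-seq lists: peaks of all 8 libraries on chromosomes 1 to 19, X and Y were merged wherever they overlapped by at least 1 bp, and a merged region became a member when it held a peak of FAK-/- replicate 1 and of FAK-/- replicate 2 and no peak of any other library. This gave 328 members of 69399 merged regions (0.473%), or 1.04% of the 31408 regions that were called in both FAK-/- libraries. Everything that follows from this choice, including the absence of a call in the other lines and the strength of the calls in the FAK-/- libraries, is a description and was not tested.

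ATAC-seq marks open chromatin by the places where the Tn5 transposase can insert sequencing adapters. The cells came from skin SCCs carrying a Ha-Ras driver, which DMBA and TPA had raised in FVB mice of the K14CreER FAKflox/flox genotype. Treatment with 4-hydroxytamoxifen, which activates the Cre, then removed FAK from the cultured cells. A single FAK-/- clone then served as the parent of all 4 lines. The FAK-/- line received no construct (labelled control, 2 libraries), and the other lines were made by retroviral transduction and hygromycin selection to re-express FAK-WT (2 libraries), FAK-nls, in which the substitutions R177A, R178A, R190A, R191A, R216A and R218A impair nuclear localization (2 libraries), or FAK-kd, which carries the kinase-inactivating substitution K454R (2 libraries). The FAK-/- cells thus differ from the others in transduction and selection as well as in FAK, and these cannot be told apart. The study describes the 2 libraries of a line as biological replicates, and neither it nor the labels say what was grown or prepared separately.

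FAK, encoded by *Ptk2*, is a non-receptor tyrosine kinase that relays signals from integrins at focal adhesions, the sites where cells grip the extracellular matrix, and in SCC cells it also acts in the nucleus. Accessible regions are mostly promoters, where transcription starts, and enhancers, which bind transcription factors at a distance from the genes they act on. The AP-1 factors, dimers of Jun and Fos family proteins, bind many enhancers of keratinocyte-derived tumour cells. *Ptk2* itself was the nearest protein-coding gene of 15 regions and of 0 members, and its promoter and 9 of the 15 regions were called in all 8 libraries. Calls over the deleted stretch of the gene were not examined.

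The sequences at the centre of the strongest members are shown first, because the motif results below turn on short matches of this kind. Each member has 2 ranks, from the −log10 p that MACS2 gave its peak in either FAK-/- library, and members were ordered by the worse one. The first 5 lie at chr16:37728705-37729004, 48019 bp upstream of *Fstl1*, at chr8:91522216-91522515 in an intron of *Fto*, at chr14:63054765-63055064, 159 bp upstream of a start site of *Defb42*, at chr5:43261808-43262107 in an intron of *Cpeb2*, and at chr10:29178087-29178383 in an intron of *Soga3*, where the nearest protein-coding start site is that of the predicted gene *Gm49353*. The plus strand of GRCm38.p6 (RefSeq) is given 5′ to 3′ for the central 300 bases, or for the whole region of 297 bases at *Gm49353*, in lower case with matches to the motifs searched in capitals.

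Fstl1: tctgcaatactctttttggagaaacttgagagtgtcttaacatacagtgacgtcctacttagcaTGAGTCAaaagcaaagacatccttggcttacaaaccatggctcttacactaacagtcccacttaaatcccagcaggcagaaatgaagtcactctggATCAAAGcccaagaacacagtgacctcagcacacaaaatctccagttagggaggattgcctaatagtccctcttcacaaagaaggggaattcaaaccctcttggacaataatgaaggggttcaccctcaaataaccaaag
Fto: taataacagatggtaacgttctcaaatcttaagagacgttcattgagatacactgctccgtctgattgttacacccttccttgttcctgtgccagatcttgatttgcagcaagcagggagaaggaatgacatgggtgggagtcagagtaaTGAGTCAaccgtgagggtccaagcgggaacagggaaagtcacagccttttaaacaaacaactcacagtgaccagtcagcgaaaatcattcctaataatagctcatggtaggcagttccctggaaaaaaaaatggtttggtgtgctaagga
Defb42: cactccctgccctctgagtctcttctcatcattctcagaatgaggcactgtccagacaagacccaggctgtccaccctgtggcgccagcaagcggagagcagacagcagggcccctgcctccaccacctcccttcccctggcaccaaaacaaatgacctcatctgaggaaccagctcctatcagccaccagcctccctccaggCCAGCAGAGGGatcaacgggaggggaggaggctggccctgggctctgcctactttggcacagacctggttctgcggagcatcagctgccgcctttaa
Cpeb2: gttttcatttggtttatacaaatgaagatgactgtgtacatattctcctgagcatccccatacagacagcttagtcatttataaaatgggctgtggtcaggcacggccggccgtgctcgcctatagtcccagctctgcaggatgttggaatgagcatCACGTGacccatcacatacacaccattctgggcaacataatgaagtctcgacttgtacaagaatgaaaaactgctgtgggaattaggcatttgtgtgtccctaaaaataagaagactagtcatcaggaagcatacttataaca
Gm49353: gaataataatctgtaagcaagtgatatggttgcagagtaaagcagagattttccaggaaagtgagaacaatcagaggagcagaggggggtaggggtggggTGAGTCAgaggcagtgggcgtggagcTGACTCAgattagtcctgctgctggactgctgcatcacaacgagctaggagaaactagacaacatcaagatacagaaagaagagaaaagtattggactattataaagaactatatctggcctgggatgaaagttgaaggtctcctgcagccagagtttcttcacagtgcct

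The AP-1 site, TGAGTCA on either strand, occurred at bases 65 to 71 of the *Fstl1* sequence, at bases 151 to 157 of the *Fto* sequence, and at bases 101 to 107 and 127 to 133 of the *Gm49353* sequence. The *Fstl1* sequence also held the TCF/LEF match ATCAAAG at bases 161 to 167. The *Defb42* sequence held a match to the CTCF consensus at bases 204 to 214, and the *Cpeb2* sequence an E-box, CACGTG, at bases 158 to 163. These are matches of letters and do not show that a factor was bound.

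Members near genes of focal adhesion proteins are shown next, in 200 bases about the centre, because FAK acts at these structures. Of the 4 such members, that of *Arhgap26* is described below by its values only. The other 3 lie at chr11:8540021-8540220 in an intron of *Tns3*, at chr4:43560236-43560435 in an intron of *Tln1*, and at chr7:28919923-28920122 in an intron of *Actn4*, and the capitals mark matches to the TEAD motif GGAATGT on either strand.

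Tns3: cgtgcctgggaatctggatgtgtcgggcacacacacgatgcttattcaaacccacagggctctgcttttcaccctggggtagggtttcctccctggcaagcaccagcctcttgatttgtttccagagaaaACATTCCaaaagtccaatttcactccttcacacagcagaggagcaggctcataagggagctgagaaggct
Tln1: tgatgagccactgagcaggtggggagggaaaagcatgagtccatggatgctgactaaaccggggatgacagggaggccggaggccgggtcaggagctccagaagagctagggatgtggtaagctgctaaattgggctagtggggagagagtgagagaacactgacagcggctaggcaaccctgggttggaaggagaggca
Actn4: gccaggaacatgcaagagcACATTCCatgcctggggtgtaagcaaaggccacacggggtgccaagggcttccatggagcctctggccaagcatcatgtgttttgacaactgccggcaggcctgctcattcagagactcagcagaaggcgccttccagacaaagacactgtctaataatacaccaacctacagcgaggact

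The *Tns3* and *Actn4* sequences held 1 TEAD match each, and the *Tln1* sequence held 0 matches to any of the motifs searched.

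The calls at the members were weak in both FAK-/- libraries. MACS2 fold enrichment, the pileup of a peak divided by the local background of the same library, ran from 2.54 to 5.73 over the members in FAK-/- replicate 1, with a median of 3.52. In FAK-/- replicate 2 it ran from 2.68 to 5.41, with a median of 3.50. The median over all peaks was 4.13 in replicate 1 and 4.10 in replicate 2, and over the 17917 regions called in all 8 libraries it was 4.97 and 4.66. Ranked among the 43136 peaks of replicate 1 by −log10 p, the members had a median percentile of 21.8 (quartiles 9.78 and 40.2). Among the 35236 peaks of replicate 2 it was 17.8 (quartiles 8.32 and 34.1). Only 4 members, those nearest to *Fstl1*, *Fto*, *Cpeb2* and *Mindy3*, were above the median of both libraries, and 131 members (39.9%) were under the 25th percentile of both. Regions called in other pairs were of like strength: the median percentile was 26.5 in FAK-WT replicate 1 and 19.3 in replicate 2 for the FAK-WT pair only, and 15.2 in FAK-kd replicate 1 and 22.1 in replicate 2 for the FAK-kd pair only. Regions called in a FAK-/- library and 1 library of another line had medians of 18.5 in FAK-/- replicate 1 and 13.6 in replicate 2. With a minimum −log10 q of 3 or with equal list sizes, described below, mostly other regions met the rule, and their median percentiles were higher. The plot of percentiles shows the members crowded at the low end, where regions called in all 8 libraries are rarest.

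**Figure D1:**
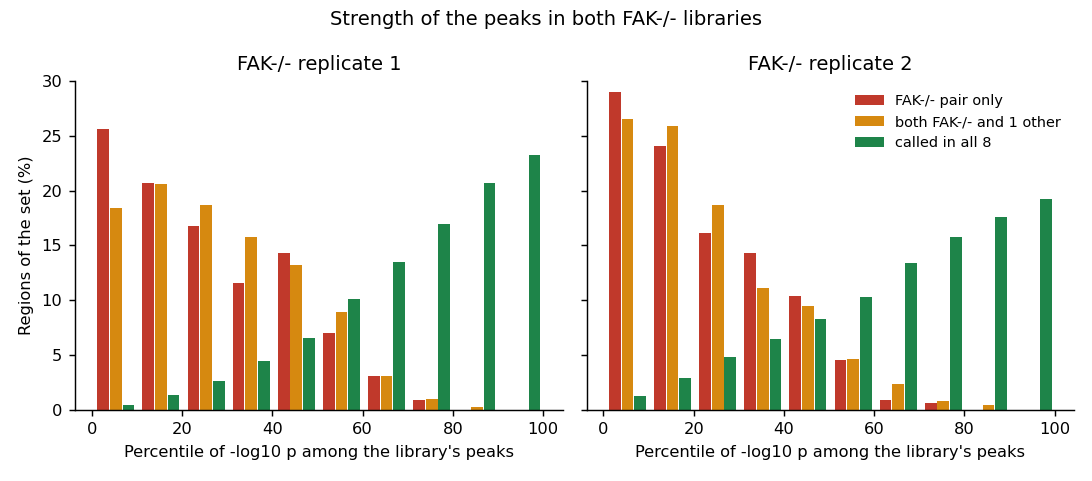
Percentile of −log10 p among all peaks of the library, in bins of 10, for the 328 members (red), the 717 regions called in both FAK-/- libraries and 1 other (orange) and the 17917 regions called in all 8 (green); bars give the share of the set in each bin. In FAK-/- replicate 1, 25.6% of the members and 0.402% of the regions called in all 8 fell in the lowest bin, and no member reached the bins from 80.

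Within the pair the strength of the members was also compared between the 2 libraries. The log2 fold enrichments of the 2 FAK-/- libraries correlated with Pearson's r = 0.357 across the 328 regions, which share the rule that chose them and are not replicates. Fold enrichment was higher in replicate 1 at 168 members. The members cover a narrow range of strength and r is not given for other regions, so how closely the 2 libraries follow each other was not tested. Each member held exactly 1 peak of each FAK-/- library, and the stretch covered by both peaks was a median of 52.8% of the region (quartiles 37.7% and 70.4%). The members were short, with a median length of 415 bp (quartiles 322 and 549 bp, range 203 to 1535 bp), against 595 bp for all regions and 1001 bp for those called in all 8 libraries. Other regions called in 2 libraries were as short, with medians of 441 bp for the FAK-WT pair only, 405.5 bp for the FAK-kd pair only and 411.5 bp for any other 2 libraries. At 45 members the q-value of at least 1 of the 2 peaks was above 0.05, the threshold stated by the authors.

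Regions just outside the rule were nearly as weak. Another 717 regions were called in both FAK-/- libraries and in exactly 1 other, and their median percentiles were 26.2 in FAK-/- replicate 1 and 18.95 in replicate 2. In 425 of them that other library was FAK-WT replicate 1, which has the longest list (53703 peaks), and in 152 it was FAK-kd replicate 2 (45937 peaks). FAK-kd replicate 1 was the other library at 51, FAK-WT replicate 2 at 45, FAK-nls replicate 1 at 26 and FAK-nls replicate 2 at 18. Without FAK-WT replicate 1 the rule gave 757 members, against 328. FAK-/- replicate 1 alone was called at 3163 regions, with a median percentile of 8.90, and FAK-/- replicate 2 alone at 1421, with a median percentile of 5.66. A region without a call may still be accessible below the calling threshold, and reads per library were not used here. In these bulk samples a region open in fewer cells and a region less open in each cell cannot be told apart.

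Which regions were members depended on the peaks admitted. Equal list sizes also left out weak peaks, so the parts of list length and peak strength were not tested separately. When each library was limited to its 24383 strongest peaks, the size of the shortest list, 310 regions were called in both FAK-/- libraries only, but they shared 27 regions with the 328 (8.23% of the members and 8.71% of the 310). In the full lists 283 of the 310 were also called in another library, 268 of them in FAK-WT. At equal list sizes the FAK-WT pair alone held 334 regions, against 1381 in the full lists. With a minimum −log10 q of 3, 182 regions met the rule and 40 of them were among the 328. The 22 members that met the rule under both stricter settings all came from the 25 best-ranked members, and *Fstl1*, *Fto*, *Defb42*, *Cpeb2* and *Gm49353* were among them. Both settings admit peaks by strength, by which the members are also ordered. Which members stayed thus follows largely from their rank and is no separate support for them.

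By the rule no peak of another library overlaps a member, and most members were also more than 1 kb from any such peak. The distances below are not given for other sets of regions, so they are not shown to be particular to the members. The nearest peak of any of the 6 other libraries was a median of 7610 bp away, it was within 1 kb at 14 members (4.27%) and within 100 bp at 2, and it was more than 10 kb away at 128 members (39.0%). When peaks up to 100 bp apart were merged as well, 332 regions met the rule and 326 of the 328 stayed.

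The best-ranked member, 433 bp at chr16:37728638-37729070, had a fold enrichment of 5.73 in FAK-/- replicate 1 and 5.41 in replicate 2. It was intergenic, 48019 bp upstream of *Fstl1*, which encodes a secreted glycoprotein that binds TGF-beta family ligands, and the *Fstl1* promoter was called in all 8 libraries. The member in *Fto*, an RNA demethylase gene, had 5.26 and 4.78, and lay 54680 bp downstream of the nearest start site of that gene. The member at *Defb42*, a beta-defensin gene, had 4.90 and 4.47. These 3 members had higher fold enrichments than the median peak of both libraries, and so had those of *Cpeb2*, a regulator of mRNA translation (4.97 and 5.32), and *Gm49353* (4.98 and 4.43).

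The next members in rank were nearest to *Mkrn1* (4.75 in FAK-/- replicate 1 and 4.30 in replicate 2), a ubiquitin ligase gene, to *Mindy3* (4.84 and 4.91), a deubiquitinase gene, to *Lhfpl2* (4.61 and 4.29) and to *Ttc28* (5.13 and 4.12). The member assigned to *Lhfpl2* lies in an annotated UTR within *Arsb* and *Gm26527*, 116334 bp from the *Lhfpl2* start site, so the nearest protein-coding start site and the gene that holds the region differ. *Heatr5a* (4.00 and 3.75), *Zfp827* (3.92 and 3.74), *Smco4* (3.99 and 3.87) and *Calhm5* (3.76 and 3.92) had values under the median peak of both libraries. *Cryab*, the gene of a small heat shock protein, had 3.74 and 3.08, although its −log10 p of 9.55 in replicate 1 was among the highest of the 20.

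The remaining members of the first 20 were nearest to genes of varied function. *Ssh2*, which encodes a phosphatase that activates the actin-severing protein cofilin, had a member centred 1 bp from a start site with 4.57 in FAK-/- replicate 1 and 4.61 in replicate 2. *Ptprk*, a receptor tyrosine phosphatase gene, had a member 89524 bp upstream with 4.53 and 4.15, and *Mrps18a*, a mitochondrial ribosomal protein gene, had one with 5.21 and 3.78. The *Fgf1* member, 15403 bp upstream of a start site of this growth factor gene, had 4.40 and 4.15. The *Timp3* member lay in an intron of *Syn3*, 113613 bp upstream of *Timp3*, the gene of a metalloproteinase inhibitor, with 3.43 and 3.99, and the *Galnt5* member lay 302428 bp upstream of that gene with 5.09 and 4.09. In FAK-/- replicate 1 the value was the higher one at 15 of the 20.

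**Figure D2:**
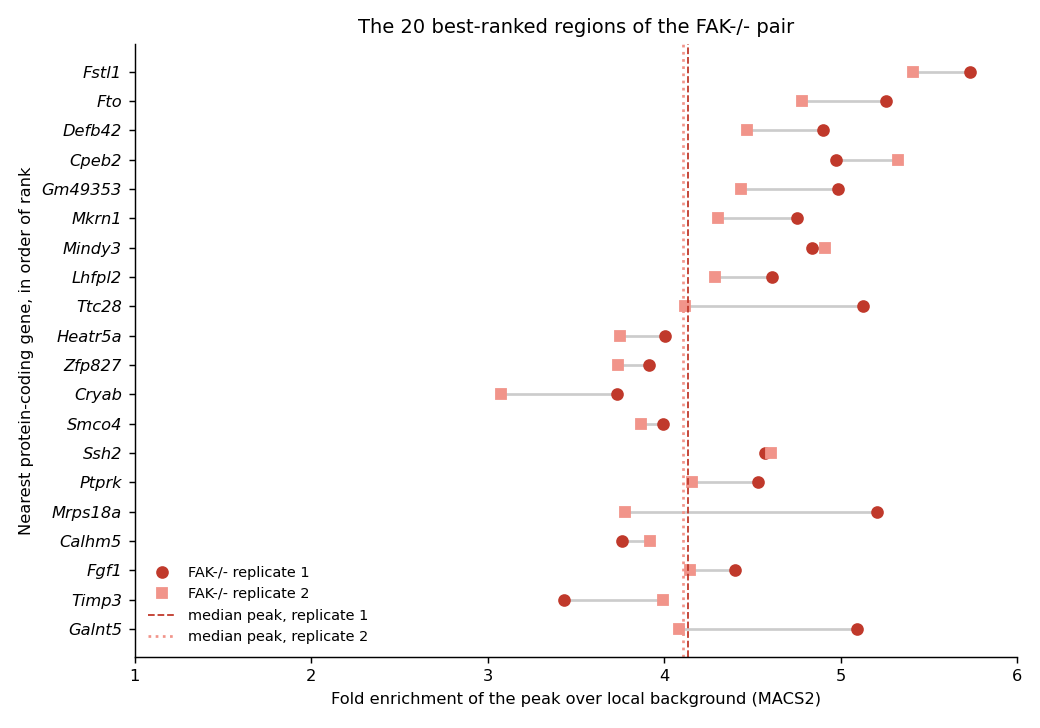
Fold enrichment of the 20 best-ranked members in FAK-/- replicate 1 (dark circles) and FAK-/- replicate 2 (light squares), each row named by the nearest protein-coding gene, with the median peak of each library as a dashed and a dotted line. The members run from 3.08 to 5.73, on both sides of the medians of 4.13 and 4.10.

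Most members lay outside promoters. A promoter was taken as 500 bp before to 2000 bp after any annotated transcription start site (TSS), and 49 members (14.9%, 95% Wilson interval 11.5% to 19.2%, which covers the counting of regions only) had their centre in one. The share was 24.0% over all regions, 49.4% over those called in all 8 libraries, 12% over the 7566 regions called in any other 2 libraries, 9.92% over the 1381 regions called only in the FAK-WT pair and 22.3% over the 220 called only in the FAK-kd pair. By the annotation at the centre, 172 members (52.4%) were intronic, 129 (39.3%) intergenic, 12 (3.66%) in a UTR, 9 (2.74%) in a noncoding exon and 6 (1.83%) in coding sequence. Of all regions 47.5% were intronic, 38.8% intergenic, 7.02% in a UTR, 3.30% in a noncoding exon and 3.35% in coding sequence. The UTR share of all regions lay above the members' interval (2.11% to 6.28%). It was 1.52% for the FAK-WT pair only, 2.67% for any other 2 libraries and 6.36% for the FAK-kd pair only.

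The nearest TSS was a median of 7834 bp from the centre of a member (quartiles 2786 and 21612 bp), close to the 7675 bp of all regions. Over the other regions called in 2 libraries it was longer: 12549 bp for the FAK-WT pair only, 9898.5 bp for the FAK-kd pair only and 10278.5 bp for any other 2 libraries. Over regions called in all 8 libraries it was 1273 bp. The farthest member was 162032 bp away, 142 (43.3%, against 43.7% of all regions) were over 10 kb and 19 (5.79%, against 9.22% of all regions) over 50 kb. The share over 50 kb was 15.4% for the FAK-WT pair only, 10% for the FAK-kd pair only, 10.7% for any other 2 libraries and 5.58% for regions called in all 8. On the side of the start site, 177 members were upstream and 151 downstream, while of all regions 32601 were upstream and 36719 downstream. The nearest TSS belonged to a protein-coding gene at 197 members (60.1%), and to protein-coding genes alone the median distance was 15574 bp.

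**Figure D3:**
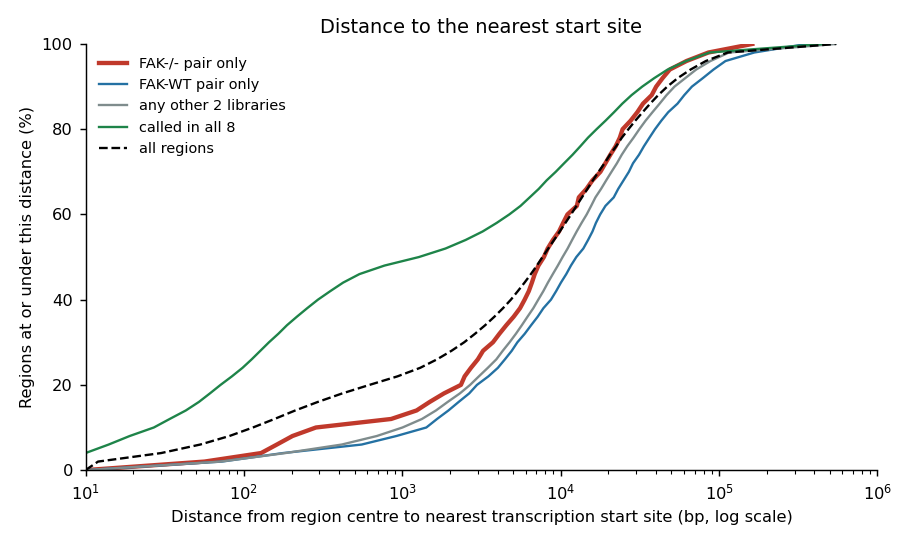
Share of regions (vertical axis, percent) whose centre lies at or under a given distance from the nearest TSS (horizontal axis, bp, log scale), for the members (thick red), the FAK-WT pair only (blue), regions called in any other 2 libraries (grey), regions called in all 8 (green) and all regions (dashed black). The members lie below all regions near the TSS and meet them around the median of 7834 bp, and 5.79% of members but 9.22% of all regions are beyond 50 kb.

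Of the 49 promoter members, 37 lay at a start site of a protein-coding gene, and their central 500 bp had a median GC content of 56.0%, against 59.0% over all promoter regions. Over all 49 promoter members the median was 51.8%. For 12 of the 37 genes some part of a promoter was called in all 8 libraries. There the calls of the other 6 libraries were in other regions, while those of the FAK-/- libraries may be the member itself. The same share is not given for other promoter regions. At *Ssh2* a promoter was called in 7 libraries, and the member, at chr11:77348106-77348457, sat on another start site, 93731 bp from any peak of the other lines. At *Tln1*, the gene of talin, which links integrins to actin, the member at chr4:43560177-43560494 was centred 1822 bp after a start site, 938 bp from the nearest peak of another line, with a fold enrichment of 2.92 in FAK-/- replicate 1 and 2.94 in replicate 2.

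*Lifr*, the gene of the receptor of leukaemia inhibitory factor, held a GC-rich member (80.2% GC) 52 bp after a start site with 4.19 and 3.53, and its promoter was called in all 8 libraries. *Kcnh2*, a potassium channel gene, had a member 185 bp before a start site with 3.94 and 3.29. The other promoter members among the 10 best ranked were at the histone gene *Hist1h2ab* (3.20 and 3.60), at *Sugp2* (3.41 and 4.15), at *Trappc12* (4.05 and 3.16) and at *Sipa1l1* (4.31 and 3.45). Each of these 4 genes had a promoter call in all 8 libraries.

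At 16 of the 37 genes the FAK-/- pair was the only source of a promoter call, which the choice of members makes likely. *Defb42* and *Syn1* were among them. *Syn1*, the gene of the synaptic vesicle protein synapsin, had its member 3 bp from a start site, 732 bp from the nearest peak of another line, with 4.03 in FAK-/- replicate 1 and 4.53 in replicate 2. The other 14, named here after their values were seen, were *Arhgef37*, *Igsf9b*, *Zfp119b*, *Cd68*, *Dio2*, *Kcnk10*, *Lrrc17*, *Gdpd2*, *Slc16a13*, *Syt14*, *Mfsd2b*, *St8sia5*, *Nfe2l3* and *Slc6a2*. *Slc6a2* encodes the noradrenaline transporter, *Dio2* an enzyme that activates thyroid hormone and *Cd68* a lysosomal protein of macrophages. Their calls were mostly weak: *Slc6a2* had 2.88 and 2.99, *Dio2* 3.57 and 3.72, and *Cd68* 3.12 and 3.01.

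The members were spread over 316 nearest protein-coding genes, 1.97% of the 16052 genes that had any region nearest. No gene had 3 or more members and 12 had 2, among them *Akap12*, *Tjp1*, *Sox2*, *Cacna1c* and *Insig2*, which like the runs below were picked after their values were seen. At *Tjp1*, the gene of the tight junction protein ZO-1, the members lay 17479 bp upstream (3.83 in FAK-/- replicate 1 and 4.03 in replicate 2) and 10810 bp downstream (4.59 and 3.17) of start sites. Of the members, 73 stood in 33 runs of neighbours up to 500 kb apart, and the longest runs held 4. Runs were not counted in other sets of regions. One of these, on chromosome 7 from 101314951 to 101823759, spanned *Stard10*, *Clpb*, *Phox2a* and *Inppl1*, and another, on chromosome 10 from 4200586 to 4900894, spanned *Akap12*, *Ccdc170* and *Esr1*.

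Lists of genes of known function were set against this spread. Over all 15 lists, 28 of the 650 genes with a region had a member nearest (4.31%, against 1.97% of all genes). These genes had more regions each, 8.54 against 4.32, and per region the share was 28 of 5553 (0.504%, interval 0.349% to 0.728%), close to the 0.473% of all regions. Without FAK-WT replicate 1 the 28 genes became 57, and with a minimum −log10 q of 3 they became 13.

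Among focal adhesion and integrin genes, 4 of 55 had a member, *Tln1*, *Tns3*, *Actn4* and *Arhgap26*, which made 4 of 534 regions (0.749%, interval 0.292% to 1.91%). *Tns3*, the gene of tensin-3, which joins integrin tails to actin, had its member 5231 bp downstream of a start site with a fold enrichment of 3.98 in FAK-/- replicate 1 and 3.81 in replicate 2, and it was 1 of 26 regions at this gene. The member of *Actn4*, the gene of the actin crosslinker alpha-actinin-4, had 2.76 and 2.76. That of *Arhgap26*, whose product binds FAK, had 3.35 and 3.30. Only the *Tns3* member of the 4 met the rule with a minimum −log10 q of 3.

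The extracellular matrix list had 6 of 46 genes with a member, or 6 of 465 regions (1.29%, interval 0.593% to 2.79%). Of the 15 lists it had the only interval that lay above the 0.473% of all regions, with no allowance for the number of lists. Of its 6 members, *Timp3* alone met the rule with a minimum −log10 q of 3, and *Timp3* and *Fn1* met it at equal list sizes. Over all transcripts, noncoding ones included, the start site nearest to the *Fn1*, *Timp3* and *Lama4* members was that of another gene. The *Fn1* member, 270728 bp upstream of the fibronectin gene, had 4.61 in FAK-/- replicate 1 and 3.71 in replicate 2. The *Col5a2* member, 2476 bp downstream of a start site, had 5.62 and 3.61, and the members of *Col4a1* (3.77 and 3.86) and *Col8a1* (3.56 and 4.63) were intronic as well. The *Lama4* member, at a laminin gene, had 4.34 and 3.79 and lay 75946 bp from any peak of the other lines. *Timp3* was the sixth.

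The Notch and Hippo list had 3 of 41, or 3 of 321 regions (0.935%, interval 0.318% to 2.71%, which holds the 0.473% of all regions). They were *Hes1* (4.37 and 3.65), a Notch target, *Wwtr1* (4.07 and 3.34), which encodes TAZ, and *Ankrd1* (4.77 and 3.62), a target of YAP and TAZ. Growth factor and receptor genes came to 3 of 46, or 3 of 420 regions (0.714%, interval 0.243% to 2.08%), and were *Fgf1*, *Erbb4* (4.38 and 4.10) and *Fgfr2* (3.76 and 3.27).

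Of the remaining lists described, each had 2 genes or fewer with a member. They were *Ltbp2* (4.49 and 3.92) and *Smad9* (4.30 and 3.34) for TGF-beta and BMP signalling, *Hdac9* (5.49 and 3.61) and *Arid2* (3.83 and 3.83) for chromatin regulation, *Ror2* (3.92 and 4.01) for Wnt signalling, *Gadd45g* (3.04 and 3.27) for the p53 pathway and cell cycle, *Perp* (3.17 and 3.96) for keratinocyte identity, and *Fn1* again for mesenchymal genes. No member was nearest to any of the 29 AP-1, CREB and ATF factor genes with a region, nor to any of the 23 ETS factor, 49 cytokine and 57 axon guidance genes. These lists hold 205, 175, 264 and 724 regions, and for the axon guidance list the interval about 0 reaches up to 0.528%, for the AP-1 list up to 1.84%.

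Promoter calls of marker genes gave a limited view of cell identity. Of 10 keratinocyte genes, *Itga6* was called at its promoter in all 8 libraries, *Krt5*, *Trp63*, *Cdh1* and 4 others in 0, *Krt14* in 1, a FAK-/- library, and *Itgb4* in 3, of which 1 was FAK-/-. Of 7 fibroblast genes 4 were called in all 8, *Col1a1*, *Col1a2*, *Pdgfra* and *Pdgfrb*. *Thy1* was called in 6 libraries, and *Lum* and *Dcn* in 0. Of 5 immune genes *Ptprc*, *Cd3e*, *Itgam* and *Cd79a* were called in 0 and *Csf1r* in 4 libraries, none of them FAK-/-. Of 3 endothelial genes *Pecam1* was called in 0, *Kdr* in 1 and *Cdh5* in 2 libraries, again none of them FAK-/-. Of 3 melanocyte genes *Pmel* was called in all 8 and *Tyr* and *Dct* in 0. Most promoters of the keratinocyte list thus had no call in any line, although Cre in the source mice is driven by the *Krt14* promoter.

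Sequence features of the members resembled those of all regions. The 500 bp about the centre of each region were searched for exact matches on either strand. TGAGTCA, the AP-1 site, was present in 108 members (32.9%, interval 28.1% to 38.2%), against 35.3% of all regions, 33.3% of those called in all 8 libraries, 38.1% of those called in any other 2, 45.0% (42.4% to 47.7%) of the FAK-WT pair only and 27.7% (22.2% to 34.0%) of the FAK-kd pair only. A shuffled site, ACTGAGT, was present in 11.0% of members and 10.4% of all regions. This control can overlap an AP-1 site, and counted only where it shares no base with one it was present in 9.45% and 7.75%. Outside promoters the AP-1 site was present in 37.3% of the 279 members (31.8% to 43.1%), 41.5% of all regions, 46.8% of the FAK-WT pair only (44.0% to 49.6%), 29.8% of the FAK-kd pair only (23.5% to 37.1%) and 56.2% of the regions called in all 8.

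The AP-1 share was higher in the regions given by equal list sizes, most of which are not among the 328. Limited to the 24383 strongest peaks of each library, it was 49.7% of the 310 regions of the FAK-/- pair (44.1% to 55.2%). It was 53.6% of the 334 regions of the FAK-WT pair (48.2% to 58.9%) and 38.9% of all regions. At this setting promoters made up 14.2% of the FAK-/- pair regions and 31.7% of all regions. Outside promoters the AP-1 share was 53.8% for the FAK-/- pair (47.8% to 59.7%), an interval that held the 50.3% of all regions. For the FAK-WT pair outside promoters it was 56.5%, with an interval that began at 50.7%. Within the 328 members the site was more frequent where other libraries had no call nearby: 45.3% of the 128 members more than 10 kb from any other library's peak held it (37.0% to 53.9%), against 25% of the 200 nearer ones (19.5% to 31.4%). This split was not made in other sets of regions, so it is not shown to be particular to the members. Members with and without the site had much the same strength, with median fold enrichments of 3.54 and 3.51 in FAK-/- replicate 1 and 3.57 and 3.48 in replicate 2. The nearest match was within 50 bp of the centre in 38.0% of the 108 members with a site (29.4% to 47.4%), and in 39.3% of all regions with one. For the shuffled site these shares were 13.9% of 36 members and 25.6% of all regions with a match.

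Most other motifs were near their share of all regions. The ETS sites AGGAAGT or CGGAAGT were in 17.7% of members (13.9% to 22.2%) and 17.0% of all regions, and their shuffled forms AGTGAAG or CGTGAAG in 11.9% and 10.9%. The TEAD site GGAATGT was in 7.62% of members and 9.004% of all regions, the RUNX site TGTGGTT in 13.4% and 13.9%, and the NF-Y sites CCAATCA or CCAATGA in 10.4% and 11.9%. The CTCF consensus was found in 19 members (5.79%, 3.74% to 8.87%), in 5.03% of all regions and in 1.64% of those called in all 8. The GC box GGGGCGGG, a promoter element, was in 4.57% of members (2.79% to 7.41%) and 8.33% of all regions. C/EBP sites (TTGCGCAA, TTGCATAA or TTGCAAT) were in 3.05% of members (1.66% to 5.52%) and 5.597% of all regions. The remaining consensuses, those of p53, NF-kB and the CArG box by name, CRE, E-box, FOX, GATA, TCF/LEF, SOX and octamer, had intervals that held the value of all regions. The GC box and C/EBP were thus the only 2 of the 20 motifs searched, shuffled controls included, whose interval did not hold that value, with no allowance for the number of motifs. For the GC box this held only over promoters and other regions together: outside promoters it was in 1.79% of members (0.768% to 4.13%) and 2.82% of all regions, and within promoters in 20.4% (11.5% to 33.6%) and 25.8%.

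**Figure D4:**
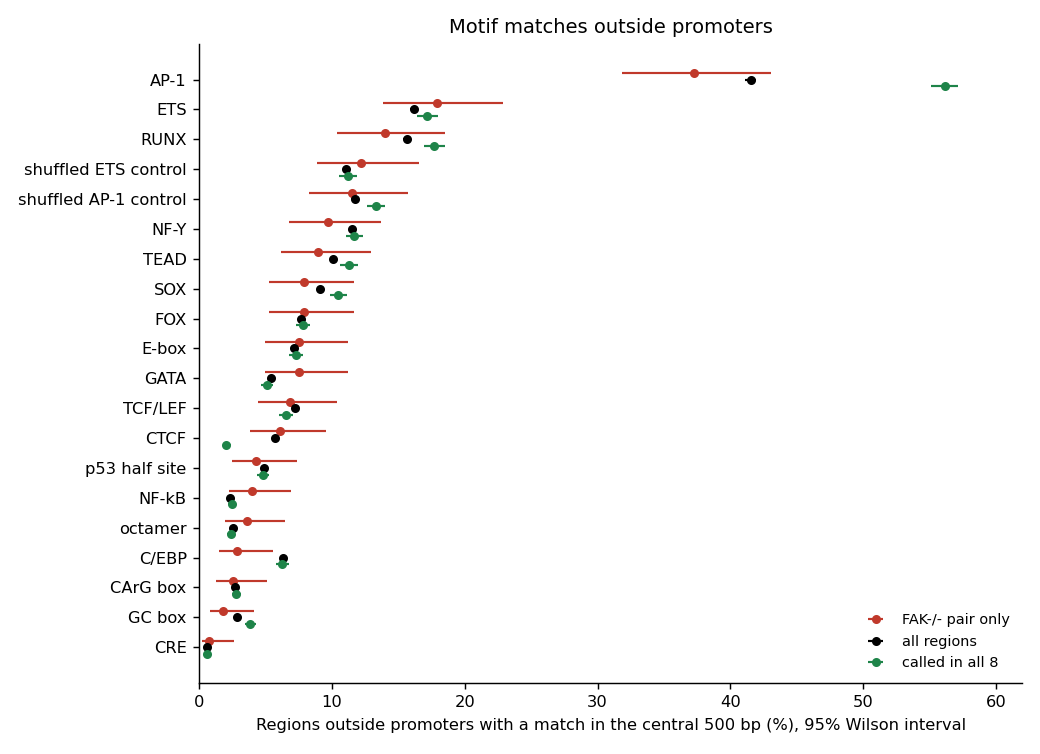
Share of regions outside promoters with at least 1 match to each motif in the central 500 bp (percent, with 95% Wilson intervals over regions), for the 279 members outside promoters (red), all regions (black) and regions called in all 8 libraries (green). The AP-1 site is at 37.3% of members and 56.2% of regions called in all 8, and most other motifs sit near the value of all regions.

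The GC content of the central 500 bp had a median of 47.2% over the members (quartiles 43.8% and 51.0%), 48.0% over all regions and 52.8% over those called in all 8 libraries. Soft-masked repeats covered more than 50% of this window in 8 members (2.44%), against 3.24% of all regions.

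The chromosomes held unequal shares of the members. Chromosome 7 had 37, which was 11.3% of the members (interval 8.30% to 15.2%) and 0.774% of its own regions, while it held 6.89% of all regions. Chromosome 10 had 31 (0.846% of its regions), chromosome 12 had 23 (0.762%) and chromosome 13 had 21 (0.744%), and chromosome 15 had 8 (0.218%). The pileup moved with chromosome 7. At the 1232 regions of that chromosome called in all 8 libraries, the median log2 pileup, relative to the mean of the libraries after each library was centred on its own median, was 0.14 in FAK-/- replicate 1 and 0.14 in replicate 2. In the other 6 libraries it lay between -0.10 and 0.01. Both FAK-/- libraries were outside the range of the other 6 in this measure on 3 of 20 chromosomes (15%), lower on chromosomes 2 and 15, and higher on chromosome 7. On chromosome 15 the values were -0.07 and -0.06 in FAK-/-, against -0.05 to 0.13 in the others. On chromosomes 10, 12 and 13, where the share of members was also high, the FAK-/- libraries were not both outside the others.

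Fold enrichment, which is taken over the local background, did not show this on chromosome 7, where the medians were -0.02 and -0.01 in the FAK-/- libraries. By that measure the FAK-/- libraries were also outside the others on 3 of 20 chromosomes (15%), and chromosomes 11, 14 and 15 were those 3. The members on chromosome 7 were weaker than the rest, with a median percentile of 18.1 in FAK-/- replicate 1 and 7.95 in replicate 2, against 23.2 and 19.3. The part of the pileup in the count of members was not tested. Without chromosome 7 the rule gave 291 members, of which 15.8% were at promoters and 32.3% held an AP-1 site.

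**Figure D5:**
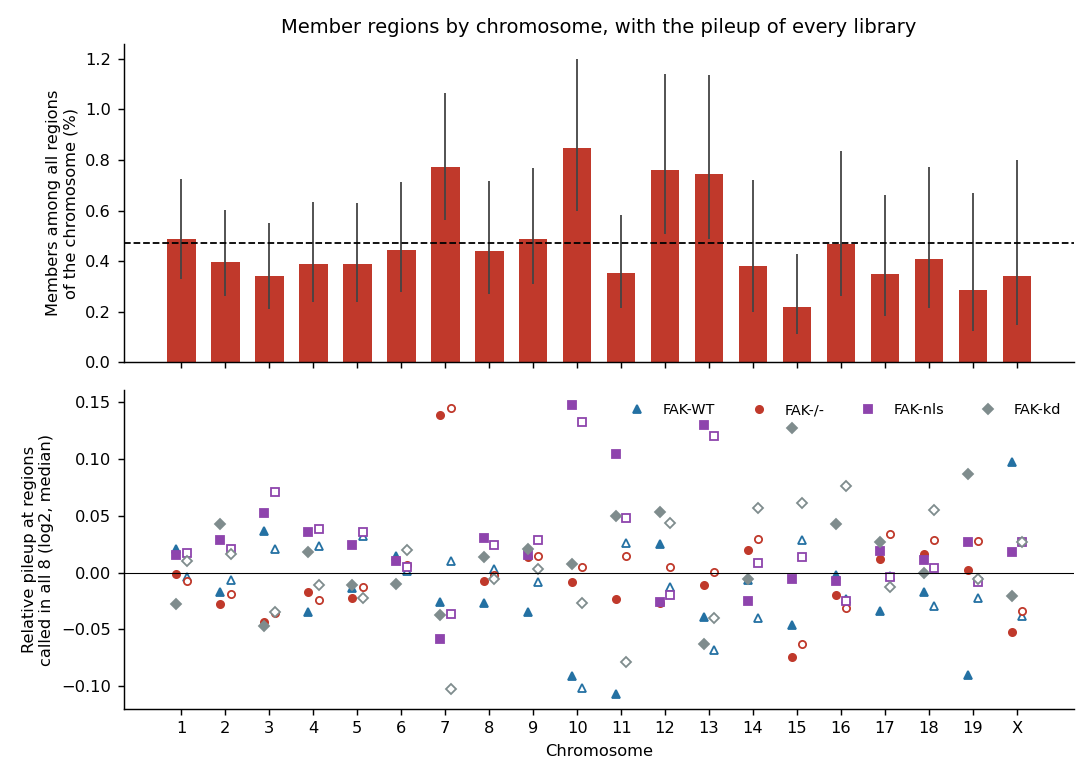
Upper panel, members as a percentage of all regions of each chromosome with 95% Wilson intervals, and the share over chromosomes 1 to 19 and X as a dashed line; lower panel, the median relative log2 pileup of each library at regions called in all 8, by chromosome, with filled symbols for replicate 1 and open symbols for replicate 2. On chromosome 7 the FAK-/- libraries are at 0.14, above the other 6.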

How the data were processed

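ATAC-seq was performed by the authors on 8 libraries of mouse SCC cells, 2 each of the FAK-/- line and of the FAK-WT, FAK-kd and FAK-nls lines. Reads were aligned to mm10 with the bcbio pipeline, and broad peaks were called by the authors in each library separately, with replicates not pooled, using MACS2 2.1.1 (submitters' processing notes) at a stated q-value of 0.05, although the lists also hold peaks above it (0.78% to 3.83% of a list). Per the file headers, each deposited list gives the coverage of a peak as pileup, the fold enrichment over local background, and −log10 p and −log10 q. No column of the authors' own comparisons was used. Read depth was not used here, and the lists held 24383 to 45937 peaks, and 53703 in FAK-WT replicate 1, after 15 to 25 peaks per list outside chromosomes 1 to 19, X and Y were left out.

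Regions were annotated with GENCODE M21 (141730 transcript starts) on GRCm38.p6, with Python 3.11.15, pandas 2.3.3, NumPy 2.4.6, SciPy 1.17.1, pysam 0.24.0 and matplotlib 3.10.9. The distance and the promoter window (500 bp before to 2000 bp after a start site) refer to the region's centre, and gene lists used the nearest protein-coding start site. The text names the 20 best-ranked members, the 10 best-ranked members at promoters of protein-coding genes, members nearest to a gene of the lists reported, and genes with 3 or more members, of which there were 0. Other genes named for their members are marked as chosen after their values were seen. The values of 1 of the 15 gene lists are not reported here, although its genes are in the totals over all lists. Members, gene lists and motifs were chosen with earlier results of these data known. No test was made, since membership was defined by the same calls. Intervals are 95% Wilson intervals and cover the counting of regions only. The merging and motif search were checked on simulated data. Other thresholds, list sizes, merging rules, annotations and windows were tried, and each library was left out in turn.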

Additional observations from a re-analysis of the deposited data

How the results depend on the processing

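In 107 of 138 alternative values the result stayed within its interval over regions, or within 1.5 times for a count, and the exceptions came mainly from the strength of the peaks admitted and from the libraries left out. With a minimum −log10 q of 3 there were 182 members, with an AP-1 share of 42.9%, a median GC content of 46.6%, median percentiles of 47.4 in FAK-/- replicate 1 and 45.4 in replicate 2, and 13 listed genes with a member. With the same number of strongest peaks per library the AP-1 share was 49.7% and the median percentiles were 54.1 and 43.4. With protein-coding transcripts only, the promoter share was 11.3% and the median distance to a TSS 15574 bp. A window of 200 bp gave an AP-1 share of 22.6%. The median length was 582 bp with peaks set to 500 bp, and 487.5 bp where peaks had to cover 50% of a region, which also gave a median percentile of 26.1 in FAK-/- replicate 1. Taking the nearest start site over all transcripts, an alternative added after the data were seen, left 15 listed genes.

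Leaving out each library in turn gave 347 to 3498 members, promoter shares of 13.9% to 17.2%, median distances of 7760 to 9083 bp, AP-1 shares of 23.5% to 39.8%, median GC contents of 47.0% to 48.8%, median lengths of 307.5 to 429 bp, median percentiles of 9.69 to 25.3 in FAK-/- replicate 1 and 7.16 to 19.6 in replicate 2, and 29 to 190 listed genes. Without FAK-/- replicate 1 there were 1755 members and without FAK-/- replicate 2 there were 3498, because a single FAK-/- library then sufficed, and without a library of another line every member stays by construction. Leaving out chromosome 7 was added after the data were seen and gave 291 members. The use of protein-coding transcripts for the gene lists, planned as an alternative, was already the main assignment. No paired analysis was possible because the results come from no test.

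Weak calls and the small number of libraries both limit these values. The lists give no reads, so a region without a call is not shown to be closed. All lines derive from a single clone, so no spread between clones was measured.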

Other observations

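Some genes had both a region called only in the FAK-/- pair and another called only in the FAK-WT pair. There were 34 such genes, which is 10.8% of the 316 genes nearest to a member and 2.93% of the 1162 genes nearest to a FAK-WT pair region, while 7.24% of all genes with a region had a FAK-WT pair region. These shares are per gene and take no account of how many regions a gene has. *Mrtfb*, the gene of a coactivator of serum response factor that senses free actin, was chosen here after its values were seen. Its FAK-WT pair region lay at chr16:13246943-13247194, 9413 bp upstream of a start site, and its FAK-/- pair region at chr16:13250020-13250459, 6242 bp upstream. *Vipr2*, a neuropeptide receptor gene also chosen after its values were seen, had a FAK-WT pair region 6656 bp upstream and a FAK-/- pair region 179 bp upstream of a start site.

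At the nearest protein-coding gene of 195 members (59.5%) a promoter was called in all 8 libraries, and at 54 (16.5%) in none. Over all regions the shares were 59.6% and 17.7%, and over the FAK-WT pair regions the shares were 42.9% and 28.5%. The 19 members with a CTCF match had median fold enrichments of 3.63 in FAK-/- replicate 1 and 3.81 in replicate 2, and 1 of them also held an AP-1 site.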
